A study of Danio rerio with 24 samples.

Results

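The heat shock proteins and their J-domain cochaperones were followed in livers of zebrafish larvae. The set held every gene ID of the count table whose symbol starts with hsp or dnaj, without hspa5, hsp90b1 and the symbols that start with hspg or hspb, which left 75 of 32520 IDs. By family these were 14 HSP70 and HSP110 IDs, 3 HSP90 IDs, 2 IDs of the HSP60 and HSP10 chaperonin, 4 HSPA12 IDs and, among the J-domain proteins, 6 DNAJA, 14 DNAJB and 32 DNAJC IDs. Although the set was put together as cytosolic chaperones, 11 of its IDs were listed as mitochondrial and 13 as endoplasmic reticulum proteins, so the results are given by compartment. The lists may not be complete, and dnajc18 is on neither.

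HSP70 proteins bind unfolded stretches of other proteins and release them again at the cost of ATP, and J-domain proteins bring them their clients and speed up that cycle. HSP90 takes over clients that are nearly folded, and mitochondria and the endoplasmic reticulum hold HSP70 machines of their own. Cells keep constitutive copies such as HSPA8 and HSP90AB1 at all times and switch on inducible copies, such as hsp70l and HSP90AA1, through the transcription factor HSF1 when proteins unfold.

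Bulk RNA-seq was made from 24 pools of dissected livers, 13 livers in each pool, at 13 days post fertilization (dpf). The 4 groups were miR-21OE-HCD (3 libraries), miR-21OE-NCD (3 libraries), WT-HCD (9 libraries) and WT-NCD (9 libraries). miR-21OE larvae carried a transgene in which the hepatocyte promoter fabp10a drives the microRNA precursor dre-mir-21-1 together with the fluorescent protein Dendra2, with mCherry under the lens promoter cryaa as a marker. WT larvae were siblings without the transgene, and no library came from larvae with the same construct but without dre-mir-21-1. HCD was the commercial larval food with 10% cholesterol by weight added and NCD was that food alone, each given between 6 and 13 dpf. The livers of a pool came from 1 clutch, and the labels sort the libraries into 9 batches: batches 1 to 6 held 1 WT-HCD and 1 WT-NCD library each, and batches 7 to 9 held 1 library of every group. WT libraries are numbered here by batch, and miR-21OE libraries 1, 2 and 3 belong to batches 7, 8 and 9. Differences were tested within batches by edgeR's quasi-likelihood method, as log2 fold changes with standard errors (SE) and p-values adjusted by the Benjamini-Hochberg method over all genes of a fit. A gene was called at an adjusted p under 0.05. Levels are given in CPM, counts scaled to library size with TMM factors over the 24 libraries.

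Depth lay between 16942574 and 36641566 counts per library, and the 75 members took 0.594% to 1.38% of the counts. All 13 hepatocyte markers listed were detected, with a summed level of 62600 to 88500 CPM in miR-21OE livers and 18500 to 96300 CPM in WT livers. WT-HCD 1 (18500 CPM) and WT-HCD 6 (26100 CPM) had the lowest sums and also the highest TMM factors, 2.07 and 1.42. WT-HCD 2 had the highest sum of intestinal epithelium markers, 1420 CPM against 2.56 to 303 CPM elsewhere. Exocrine pancreas markers, of a secretory cell type rich in endoplasmic reticulum, summed to 528 to 67100 CPM, highest in miR-21OE-NCD 3 (67100 CPM), WT-HCD 2 (41700 CPM) and WT-NCD 1 (35500 CPM). All 21 had negative values in WT-HCD against WT-NCD over the 9 batches (median -0.99, 1 called). In miR-21OE-NCD against WT-NCD 20 of the 21 had positive values (median 0.67, 0 called). In miR-21OE-HCD against WT-HCD all 21 had negative values (median -0.37, 0 called). The part of these markers in the results was not tested. The precursor ID ENSDARG00000082187 (MIR21) had 117 to 210 counts in miR-21OE livers and 12 to 139 counts in WT livers of the same batches, and on the CPM scale 1 of those 6 WT libraries reached the lowest miR-21OE value (5.38 against 5.34 CPM). In bulk livers, a lower level can come from fewer cells of a type or from less RNA per cell, and these cannot be told apart.

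Overexpression of miR-21 was examined first, in the 12 libraries of batches 7 to 9, where 70 of the 75 members passed the filter on low counts. With both diets averaged, 2 members were called and both encode J-domain proteins of the DNAJC class: DNAJC16 was higher and dnajc18 was lower in miR-21OE livers. This was 2 of 70 members, beside 2.17% of the 21660 genes tested. At an unadjusted p under 0.05 there were 10 members, beside 13.4% of genes, and DESeq2 with batch called 5, beside 5.43%. On each diet alone 0 members were called, beside 0.245% of genes on HCD and 0.268% on NCD. At an unadjusted p under 0.05 there were 7 members on HCD, beside 8.29% of genes, and 5 on NCD, beside 8.45%, shares near the background. DESeq2 with batch called 0 members on HCD, beside 1.57% of genes, and 2 on NCD, beside 1.92%, again DNAJC16 and dnajc18. The median log2 fold change of the members with both diets averaged was 0.012, and that of all genes tested was -0.0024.

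DNAJC16 (ENSDARG00000060725) encodes a J-domain protein of the endoplasmic reticulum membrane. It had 16.8, 26.4 and 23.9 CPM in miR-21OE-HCD livers, against 14.5, 10.2 and 9.05 CPM in WT-HCD livers of batches 7, 8 and 9. On NCD it had 18.2, 20.0 and 18.5 CPM in miR-21OE livers, against 5.84, 8.44 and 11.1 CPM in WT livers of the same batches. Every miR-21OE library lay above every WT library, including the 12 WT libraries of batches 1 to 6, whose highest value was 12.4 CPM. The log2 fold change was 1.05 (SE 0.19, adjusted p = 0.0161) with both diets averaged, 0.93 (SE 0.27, adjusted p = 0.278) on HCD and 1.17 (SE 0.27, adjusted p = 0.134) on NCD. The call was lost without WT-HCD 8 (adjusted p = 0.0685), without miR-21OE-NCD 1 (0.0547) and without the batch term (0.0528), and also without WT-NCD 8. A second ID with the symbol DNAJC16, ENSDARG00000059699, stayed at or below 2.09 CPM in all libraries.

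dnajc18, whose human counterpart is a J-domain protein of the endoplasmic reticulum membrane, had 5.09, 5.72 and 6.83 CPM in miR-21OE-HCD livers, against 7.66, 9.54 and 8.01 CPM in WT-HCD livers of batches 7 to 9. On NCD it had 6.05, 5.58 and 5.31 CPM in miR-21OE livers, against 10.8, 9.80 and 8.87 CPM in WT livers. All 6 miR-21OE libraries lay below all 18 WT libraries, whose lowest value was 7.41 CPM. The log2 fold change averaged over both diets was -0.67 (SE 0.16, adjusted p = 0.0494). This call stood at the threshold: it was lost in each of the 12 fits that left out 1 library, with adjusted p between 0.0572 and 0.140. DNAJC16 and dnajc18 were the 2 members whose 6 miR-21OE and 6 WT levels did not overlap in batches 7 to 9, beside 1.55% of all genes tested.

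**Figure D1:**
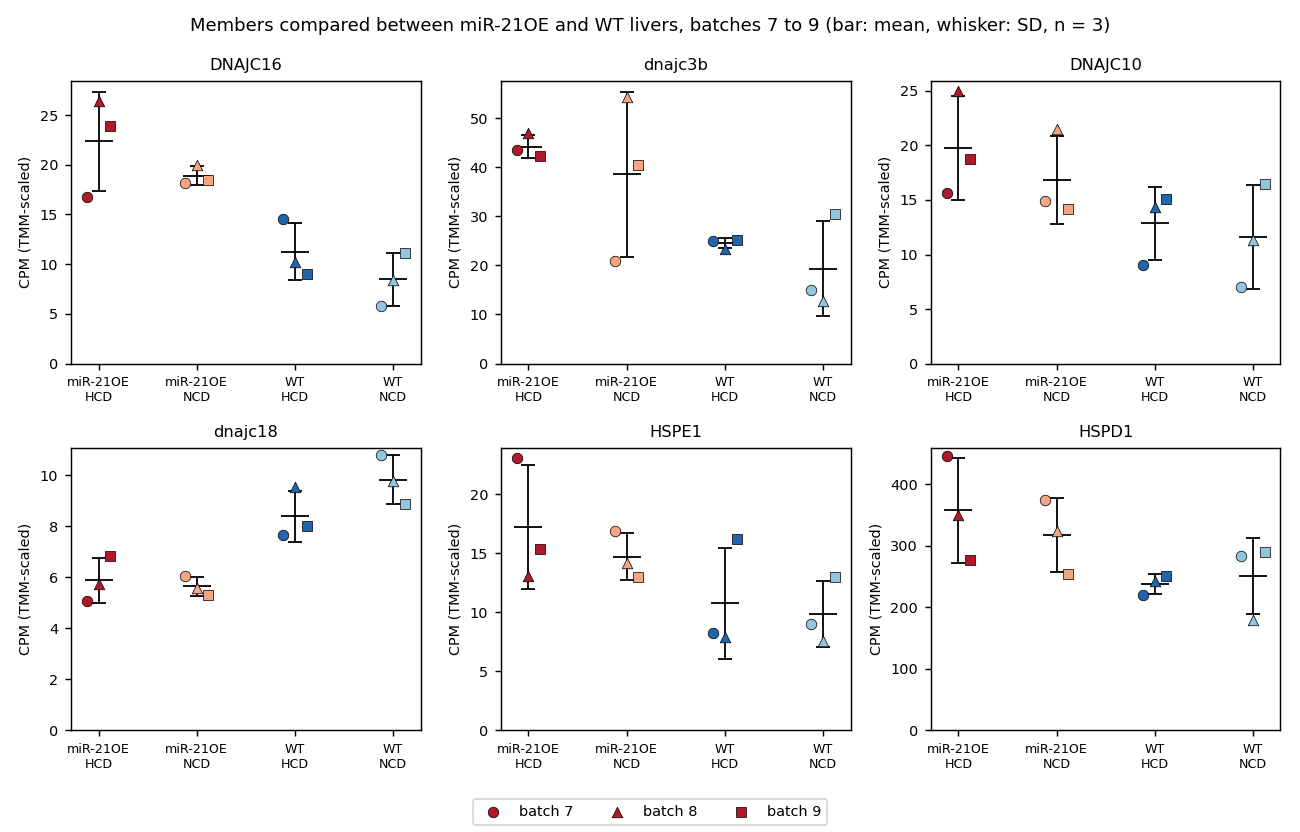
Levels in CPM (vertical axes, linear, starting at 0) of 6 members in the 12 libraries of batches 7 to 9, 1 point per library with the marker giving the batch, and the mean with its SD over 3 libraries per group. DNAJC16 was above and dnajc18 below WT in every miR-21OE library, while the 6 miR-21OE and 6 WT libraries overlapped for dnajc3b, DNAJC10, HSPE1 and HSPD1.

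Other cochaperones of the endoplasmic reticulum differed among themselves, and none but DNAJC16 among those listed for it was called. dnajc3b, a counterpart of the mammalian cochaperone p58IPK, had 43.5, 46.9 and 42.2 CPM in miR-21OE-HCD livers, against 25.0, 23.3 and 25.1 CPM in WT-HCD livers. On NCD it had 20.9, 54.2 and 40.5 CPM in miR-21OE livers, against 14.9, 12.7 and 30.4 CPM in WT livers. The groups were apart on HCD and overlapped on NCD, where miR-21OE-NCD 1 was low, and each miR-21OE library exceeded the WT library of its own batch and diet. The averaged log2 fold change was 0.91 (SE 0.23, adjusted p = 0.0673). Leaving out miR-21OE-NCD 1 gave 1.06 (adjusted p = 0.0492) and leaving out WT-NCD 9 gave 1.12 (adjusted p = 0.0261). These were its lowest miR-21OE and highest WT library, and leaving out such a library favours a call by construction. dnajc3a, the other p58IPK counterpart, had 42.4, 41.1 and 30.1 CPM in miR-21OE-HCD livers, against 32.2, 43.2 and 57.7 CPM in WT-HCD livers, and an averaged value of -0.35 (SE 0.25, adjusted p = 0.616). DNAJB11, a partner of BiP, had one of 0.03 (SE 0.29, adjusted p = 0.987).

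DNAJC10, a reductase that opens disulfide bonds of misfolded proteins, had an averaged log2 value of 0.60 (SE 0.17, adjusted p = 0.112), with 14.2 to 25.0 CPM in the 6 miR-21OE libraries and 6.98 to 16.5 CPM in the 6 WT libraries. Without WT-NCD 9, its highest WT library, the value was 0.75 (adjusted p = 0.0323), but leaving out that library favours a call by construction. DNAJB9 (ENSDARG00000016886), a cochaperone known to be induced by unfolded proteins in the endoplasmic reticulum, had an averaged log2 value of 0.55 (SE 0.23, adjusted p = 0.306). One library carried much of this: miR-21OE-HCD 1 had 21.8 CPM, against 4.28 to 7.25 CPM in the other 5 miR-21OE libraries and 2.66 to 8.08 CPM in WT livers of batches 7 to 9. Over all 18 WT libraries the highest value was 13.9 CPM. Of the 13 members listed for this compartment, which leave out dnajc18, 1 was called, beside 2.17% of all genes, and 4 had an unadjusted p under 0.05, all of them higher in miR-21OE, beside 13.4%, while 6 had a negative fold change, and the median over the 13 was 0.029.

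The HSP70 and HSP90 of the endoplasmic reticulum, which the rule for the set leaves out, varied widely between libraries. HSPA5 (BiP), its HSP70, had 1980, 654 and 366 CPM in miR-21OE-HCD livers, against 607, 277 and 479 CPM in WT-HCD livers of batches 7 to 9. On NCD it had 271, 591 and 348 CPM in miR-21OE livers, against 572, 173 and 548 CPM in WT livers. The highest of these levels was that of miR-21OE-HCD 1, and the averaged log2 fold change of HSPA5 was 0.55 (SE 0.39, adjusted p = 0.617). HSP90B1 (GRP94), its HSP90, had an averaged log2 value of -0.42 (SE 0.39, adjusted p = 0.729). Neither was called in any of the 7 comparisons.

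The 2 parts of the mitochondrial chaperonin stood side by side in the genotype comparison, and neither passed the test. HSPE1, its HSP10 lid, had 23.1, 13.1 and 15.4 CPM in miR-21OE-HCD livers, against 8.24, 7.87 and 16.2 CPM in WT-HCD livers of batches 7 to 9. The averaged log2 fold change was 0.65 (SE 0.20, adjusted p = 0.145). HSPD1, the HSP60 barrel, had 446, 350 and 276 CPM in miR-21OE-HCD livers, against 219, 242 and 251 CPM in WT-HCD livers, and its averaged value was 0.43 (SE 0.17, adjusted p = 0.266). For both genes batches 7 and 8 carried the difference, and the libraries of batch 9 lay close together. The hspd1 and hspe1 genes are direct neighbours in the RefSeq gene table of the assembly GRCz12tu. HSPA9, the HSP70 of the same compartment, had an averaged value of -0.36 (SE 0.16, adjusted p = 0.370). Of the 11 mitochondrial members 0 were called, beside 2.17% of all genes tested. At an unadjusted p under 0.05 there were 3 of them, 2 higher and 1 lower in miR-21OE, beside 13.4% of genes.

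DNAJC22, a J-domain protein with membrane spans, had the lowest averaged log2 fold change among the 49 members with a mean of at least 50 counts, -0.74 (SE 0.25, adjusted p = 0.190). It had 2.35, 4.35 and 3.58 CPM in miR-21OE-HCD livers, against 1.74, 9.28 and 7.62 CPM in WT-HCD livers. WT-HCD 7 was below every miR-21OE library. Without it the adjusted p was 0.0298, but leaving out the library against the direction favours a call, so this adds no support.

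The main cytosolic and stress-inducible members were not called for the genotype. HSPA8, the constitutive HSP70 (ENSDARG00000068992), had an averaged log2 value of 0.12 (SE 0.13, adjusted p = 0.770), and HSP90AB1, the constitutive HSP90, one of -0.08 (SE 0.13, adjusted p = 0.864). HSP90AA1 had 0.05 (SE 0.36, adjusted p = 0.979) and hsp70l had -0.08 (SE 0.37, adjusted p = 0.966). The inducible copies had the wider errors. On NCD alone hsp70.3 had -0.85 (SE 0.45, adjusted p = 0.675), the lowest value among the 49 members with a mean of at least 50 counts. It had 0.515, 0.78 and 0.432 times the WT level on NCD in batches 7, 8 and 9, and 0.425, 2.23 and 1.02 times on HCD. For the ID with the symbol HSPA2 these ratios were 0.81, 0.903 and 0.769 on NCD, and 0.347, 2.18 and 1.61 on HCD.

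**Figure D2:**
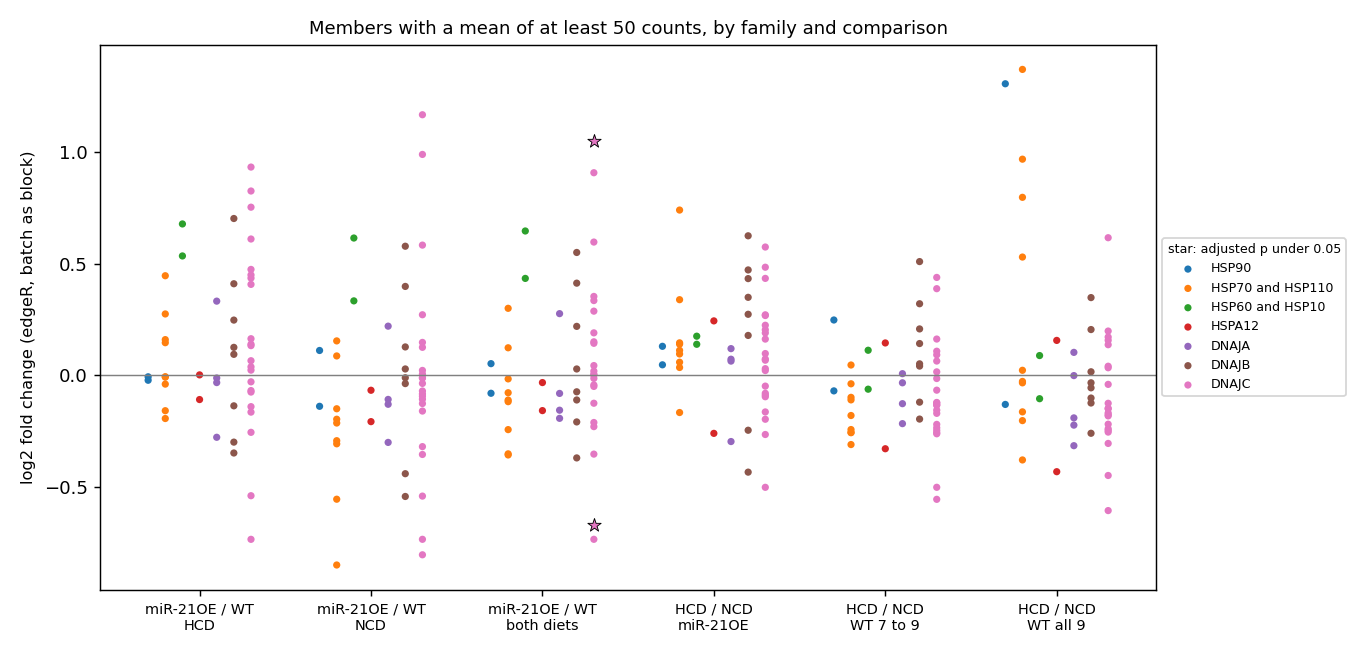
Log2 fold change (vertical axis) of every member with a mean of at least 50 counts, by family (colour), in 6 comparisons, 1 point per gene ID, with stars for members called at an adjusted p under 0.05. The 2 stars are DNAJC16 (1.05) and dnajc18 (-0.67) with both diets averaged. The highest values are those of hsp70.1 (1.37) and HSP90AA1 (1.31) in the diet comparison over all 9 WT batches.

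Outside the members, 40 IDs of HSP70 and HSP90 partners and of heat shock factors were listed. A further 8 IDs belonged to subunits of the cytosolic chaperonin CCT, with cct2 and CCT2 as separate IDs and none for CCT6. In the averaged genotype comparison 2 of the 38 partners tested were called, both higher, and 0 of the 8 CCT IDs, beside 2.17% of all genes. At an unadjusted p under 0.05 there were 4 CCT IDs (CCT3, CCT4, cct2 and CCT2), beside 13.4% of genes. bag6 (ENSDARG00000075892), which holds misfolded and tail-anchored proteins in solution, had 48.4, 48.3 and 41.4 CPM in miR-21OE-HCD livers and 56.7, 54.3 and 34.2 CPM in miR-21OE-NCD livers, against 21.9 to 32.5 CPM in the 6 WT libraries of batches 7 to 9. The groups did not overlap there, and the log2 fold change was 0.74 (SE 0.16, adjusted p = 0.0318). The call was kept in 4 of 12 fits without 1 library and lost without the batch term (adjusted p = 0.125). The other ID of this symbol, BAG6 (ENSDARG00000077531), was not called. Its genotypes overlapped, at 11.3 to 16.8 CPM in miR-21OE livers and 10.1 to 19.1 CPM in WT livers of batches 7 to 9. HIKESHI, which carries HSP70 into the nucleus, had 25.7 to 40.6 CPM in miR-21OE livers and 18.9 to 28.8 CPM in WT livers of the same batches, and its fitted log2 difference was 0.60 (SE 0.13, adjusted p = 0.0408). This call was kept in 1 of 12 fits without 1 library. hsf1, the gene of the heat shock factor HSF1, had a fitted log2 difference of -0.46 (SE 0.14, adjusted p = 0.140).

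The diet was examined next, in WT livers of all 9 batches, where 71 members were tested. The fit called 0 members, beside 7.48% of the 23934 genes tested. At an unadjusted p under 0.05 there were 15 members, 8 of them higher and 7 lower in WT-HCD, beside 21.1% of all genes, and DESeq2 with batch called 7, beside 13.2%. The median log2 fold change of the members was -0.03, and that of all genes tested was 0.04. The members' shares were thus at or below those of all genes. The 3 lowest adjusted p among the members were those of HSP90AA1, HSPA9 and DNAJC16, and HSPA12B, an HSP70 relative, had a value of -0.43 (SE 0.14, adjusted p = 0.0901).

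HSP90AA1, the inducible HSP90, had 20.1, 3.82, 1.46, 0.668, 8.15, 19.3, 6.03, 3.39 and 1.08 CPM in WT-HCD livers of batches 1 to 9. In WT-NCD livers of the same batches it had 1.87, 1.03, 0.506, 0.564, 4.53, 2.38, 3.77, 2.89 and 1.37 CPM. WT-HCD was higher in 8 of 9 batches, with the exception of batch 9, and WT-HCD 1, 5 and 6 were above every WT-NCD library, as was WT-HCD 7. The log2 fold change was 1.31 (SE 0.37, adjusted p = 0.0507). It was called with DESeq2 (adjusted p = 0.00766). It was also called without WT-HCD 9 (1.51, adjusted p = 0.0271) or WT-NCD 9 (1.51, adjusted p = 0.0273). Either omission takes batch 9, the batch with the opposite direction, out of the comparison, so these fits are not separate checks. Without batches 1, 2 and 6, a choice made after seeing the data because WT-HCD 1, 2 and 6 stood apart by scaling factor or marker sums, the value was 0.54 (adjusted p = 0.343).

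The inducible HSP70 copies followed the same libraries. hsp70.3 had 14.6, 1.31, 0.5, 0.668, 13.6, 21.8, 3.79, 4.84 and 1.2 CPM in WT-HCD livers of batches 1 to 9, against 1.57, 0.271, 0.368, 0.769, 6.3, 3.57, 4.96, 5.15 and 1.37 CPM in WT-NCD livers. Its log2 fold change was 0.97 (SE 0.40, adjusted p = 0.179), and WT-HCD was higher in 5 of 9 batches. hsp70.1 had a value of 1.37 (SE 0.54, adjusted p = 0.158), hsp70l one of 0.53 (SE 0.37, adjusted p = 0.463) and the ID with the symbol HSPA2 one of 0.80 (SE 0.34, adjusted p = 0.196). Without batches 1, 2 and 6 these values were 0.13 for hsp70.3, 0.38 for hsp70.1, -0.15 for hsp70l and 0.11 for HSPA2, with adjusted p between 0.767 and 0.909. hsp70.1 and hsp70.3 lie beside hsp70.2 in the GRCz12tu table and are near-identical copies, so reads may have been split between them and their separate values are uncertain. HSPA2 was named, and set beside the inducible copies, after its values were seen. No member had the symbol hsp70.2, and whether the HSPA2 ID is that copy was not checked. HSPA2 had 14, 14.5 and 20.8 CPM in WT-HCD 1, 5 and 6, close to hsp70.3, so these members may not be separate readings.

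WT-HCD 1, 5 and 6 held the 3 highest of the 18 WT levels for HSP90AA1, hsp70.1, hsp70.3, hsp70l and HSPA2 alike. The summed level of these 5 members was 62.2, 50.5 and 85.6 CPM in WT-HCD 1, 5 and 6 and 2.91 to 22.7 CPM in the other 6 WT-HCD libraries, against 2.22 to 28.4 CPM in WT-NCD livers. The 5 members were put together after their values were seen, so no test of the sum is given. The same 3 libraries had the highest summed neutrophil and macrophage markers, 228, 218 and 187 CPM, against 28 to 168 CPM in the other WT libraries, and 6 of the 15 markers tested were called higher in WT-HCD. WT-HCD 1 and 6 also had the lowest hepatocyte marker sums, whereas WT-HCD 5 had 58800 CPM. The part of cell makeup in these 5 members was not tested. In miR-21OE livers of batches 7, 8 and 9 the sum was 8.44, 37.5 and 4.39 CPM on HCD, against 21, 14 and 3.74 CPM on NCD. It was thus lower on HCD in batch 7 and higher in batches 8 and 9. HSP90AA1 in miR-21OE-HCD livers had 0.367, 2.5 and 0.888 times its miR-21OE-NCD level in these batches.

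**Figure D3:**
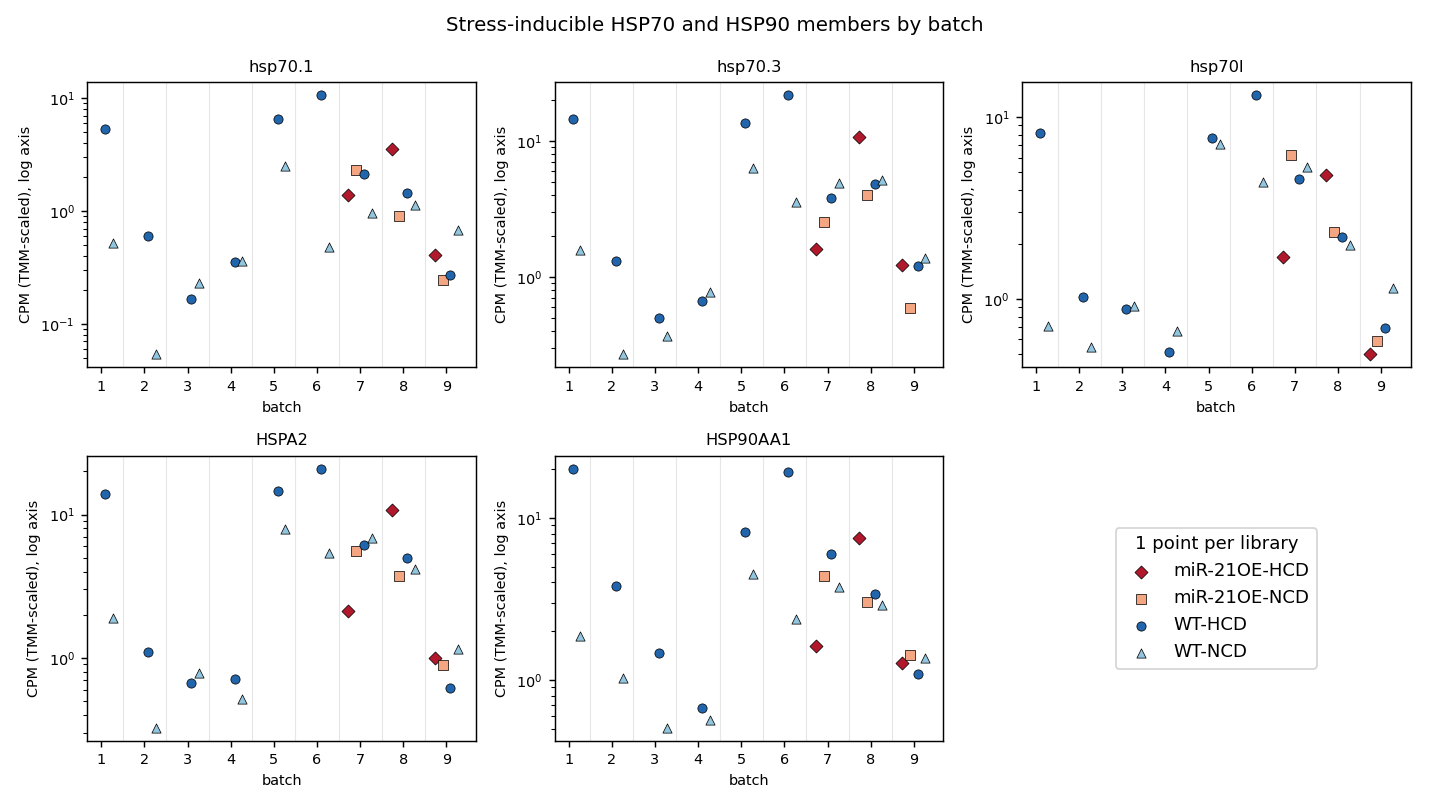
Level in CPM (vertical axes, logarithmic) of 5 HSP70 and HSP90 members by batch (horizontal axes), 1 point per library, with colour and shape giving the group. The 5 members, HSPA2 among them, were put together after their values were seen. WT-HCD libraries of batches 1, 5 and 6 are the 3 highest WT libraries in all 5 panels, with HSP90AA1 at 20.1, 8.15 and 19.3 CPM.

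The HSP40 partners and HSPH1 shared this pattern in part or not at all. dnajb1a, a partner of inducible HSP70, had 6.14, 4.57 and 5.58 CPM in WT-HCD 1, 5 and 6, within the WT-NCD range of 4.02 to 8.93 CPM. Its relative dnajb1b had 7.54, 5.5 and 7.49 CPM there, against 1.73 to 7.33 CPM in WT-NCD livers, so WT-HCD 1 and 6 were the highest WT libraries. HSPH1, the HSP110 exchange factor, also had its highest WT levels in WT-HCD 1 (1.29 CPM) and WT-HCD 6 (0.867 CPM), at low counts, and its log2 fold change was 0.63 (SE 0.51, adjusted p = 0.544). In the endoplasmic reticulum, DNAJC16 had a diet value of 0.62 (SE 0.18, adjusted p = 0.0593) and was higher in WT-HCD in 8 of 9 batches. Without batches 1, 2 and 6 it was 0.33 (adjusted p = 0.512).

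Mitochondrial members leaned the other way: 10 of the 11 had a negative log2 fold change in WT-HCD against WT-NCD, 3 with an unadjusted p under 0.05, beside 21.1% of all genes, and 0 called, beside 7.48%. Their median was -0.24, beside 0.04 for all genes tested. HSPA9 had 140, 141, 174, 171, 144, 118, 169, 176 and 226 CPM in WT-HCD livers of batches 1 to 9, against 153, 223, 194, 205, 243, 192, 242, 204 and 234 CPM in WT-NCD livers. It was lower in WT-HCD in 9 of 9 batches although the ranges overlapped, and its fitted log2 difference was -0.38 (SE 0.11, adjusted p = 0.0583). In miR-21OE livers HSPA9 was instead higher on HCD, at 1.07, 1.01 and 1.36 times its NCD level in batches 7, 8 and 9. In that comparison 6 of the 11 mitochondrial members had a positive value and 5 a negative one (median 0.068, 0 called). The WT value of HSPA9 was called with DESeq2 (adjusted p = 0.00255), without WT-HCD 9 (0.0400) and without WT-NCD 9 (0.0411). Either omission takes batch 9 out of the comparison, so these fits are not separate checks. With library totals in place of TMM the value was -0.03 (adjusted p = 0.904), beside a median of 0.39 for all genes.

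DNAJA3, the J-domain partner of HSPA9, had 37.4 to 148 CPM with a median of 62.0 CPM in WT-HCD livers and 40.8 to 168 CPM with a median of 75.4 CPM in WT-NCD livers. It was lower in WT-HCD in 9 of 9 batches, and its fitted log2 difference was -0.32 (SE 0.11, adjusted p = 0.12). dnajc30b, another mitochondrial J-domain protein, was also lower in 9 of 9 batches, at -0.45 (SE 0.15, adjusted p = 0.0857). The chaperonin lay closer to 0: HSPD1 had -0.10 (SE 0.12, adjusted p = 0.708) and HSPE1 had 0.09 (SE 0.11, adjusted p = 0.725). With library totals these values were 0.04 for DNAJA3 (adjusted p = 0.837) and -0.09 for dnajc30b (adjusted p = 0.711). The sign of DNAJA3 turned, but the median of all genes was 0.39 with that scaling, so both stayed below it. DNAJA3 was named after its values were seen. All 13 hepatocyte markers had negative values in the same comparison, with a median of -0.36 and 2 called, and the part of cell makeup in the mitochondrial members was not tested.

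**Figure D4:**
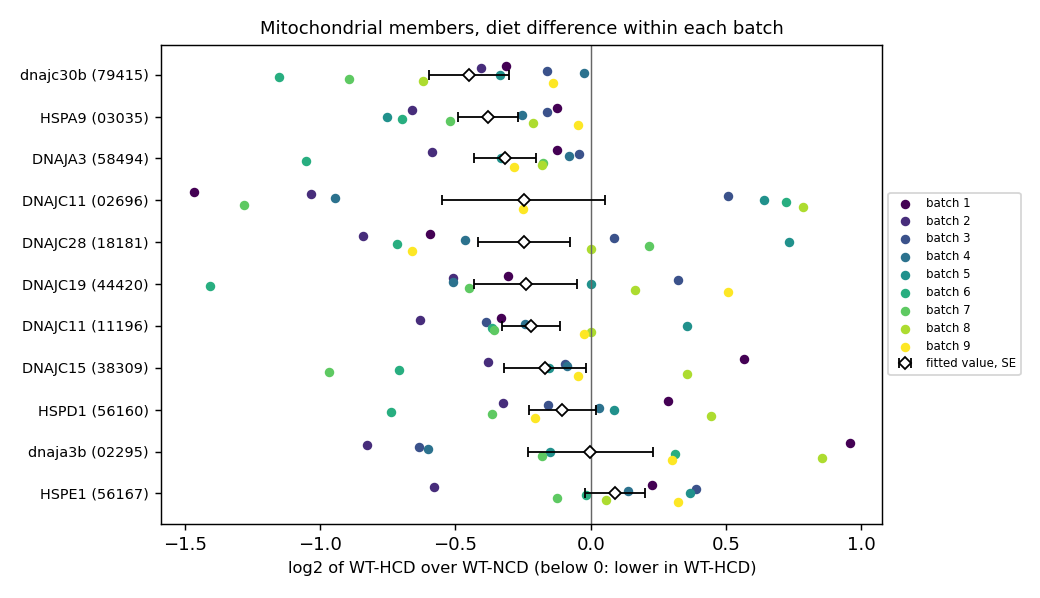
Log2 ratio of WT-HCD over WT-NCD (horizontal axis) for the 11 mitochondrial members, named with the last digits of their IDs, 1 coloured point per batch, with the fitted value and its SE as an open diamond. All 9 points of HSPA9, DNAJA3 and dnajc30b lie below 0, and the fitted values of the 11 run between -0.45 for dnajc30b and 0.09 for HSPE1.

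Among the partners, 2 of the 39 tested were called in the diet comparison, both lower in WT-HCD, beside 7.48% of all genes tested. GRPEL1, the nucleotide exchange factor of HSPA9, had 11.7, 15.9, 16.3, 20, 14.6, 10.1, 14.7, 22.8 and 26.1 CPM in WT-HCD livers of batches 1 to 9, against 20.9, 25.4, 18.8, 22.3, 22.1, 19.9, 21.4, 23.1 and 30 CPM in WT-NCD livers. It was lower in every batch, and its fitted log2 difference was -0.47 (SE 0.12, adjusted p = 0.0316). The call was kept in 8 of 18 fits without 1 library, where leaving out either library of a batch takes that batch out of the comparison. BAG4, an exchange factor of cytosolic HSP70, had -0.49 (SE 0.13, adjusted p = 0.0445), kept in 4 of 18 such fits. Library totals gave -0.11 for GRPEL1 and -0.13 for BAG4 (adjusted p of 0.477 and 0.520), beside a median of 0.39 for all genes. Without batches 1, 2 and 6 the values were -0.28 and -0.31, with adjusted p of 0.310 and 0.406.

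Within batches 7 to 9 the diet calls were fewer. In miR-21OE-HCD against miR-21OE-NCD, 0 members were called, beside 0.00923% of genes, and in WT-HCD against WT-NCD of those batches 0 were called, beside 0.0831%. The interaction of genotype and diet gave 0 member calls and 0 calls over all genes, beside 454 genes (2.1%) and 0 members at an unadjusted p under 0.05. At an unadjusted p under 0.05 there were also 0 members in either diet comparison, beside 4.34% of genes in miR-21OE and 6.38% in WT. DESeq2 with batch called 0 members in each of the 3, beside 0.24% of genes for the diet in miR-21OE, 0.849% for the diet in WT and 0.0369% for the interaction. The highest interaction value among the 49 members was that of hsp70.3, 1.00 (SE 0.62, adjusted p = 1), where miR-21OE-HCD 2 had 10.8 CPM.

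The constitutive members split the libraries by batch rather than by group. HSPA8 (ENSDARG00000068992) averaged 7767 ± 963 CPM in the 16 libraries of batches 5 to 9 and 2975 ± 218 CPM in the 8 libraries of batches 1 to 4 (SD). HSP90AB1 averaged 3151 ± 405 CPM in batches 5 to 9 and 1768 ± 196 CPM in batches 1 to 4. Neither gene's ranges overlapped between the 2 sets of batches. Among WT libraries, 12 of 71 members did not overlap between batches 5 to 9 and batches 1 to 4, beside 9.12% of all genes tested. The labels do not mark this cut between batches, and it was not among the planned comparisons. HSPA8 and HSP90AB1, whose levels show the cut, are among the 12, so the share only describes the members. The 4 that were higher in batches 5 to 9 were HSPA8, HSP90AB1, HSPA4 (ENSDARG00000018989) and dnajc8, and the 8 that were lower were the J-domain members DNAJC5, dnajc4, DNAJB12 (ENSDARG00000039363), dnajc5ga, DNAJC19, DNAJB14, DNAJC27 and DNAJA2 (ENSDARG00000104066). The share of counts of rn7sl1, a noncoding RNA of the signal recognition particle, lay between 6.45% and 13.1% in batches 5 to 9 and between 1.72% and 2.77% in batches 1 to 4, and its part in the split was not tested. As a share of raw counts, HSPA8 took between 0.515% and 0.910% in batches 5 to 9 and between 0.290% and 0.569% in batches 1 to 4, which overlap. Within batches HSPA8 was not called for the diet: its log2 fold change in WT-HCD against WT-NCD was -0.03 (SE 0.15, adjusted p = 0.951), and 0.33 (adjusted p = 0.0348) with library totals, which also moved the median of all genes to 0.39.

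**Figure D5:**
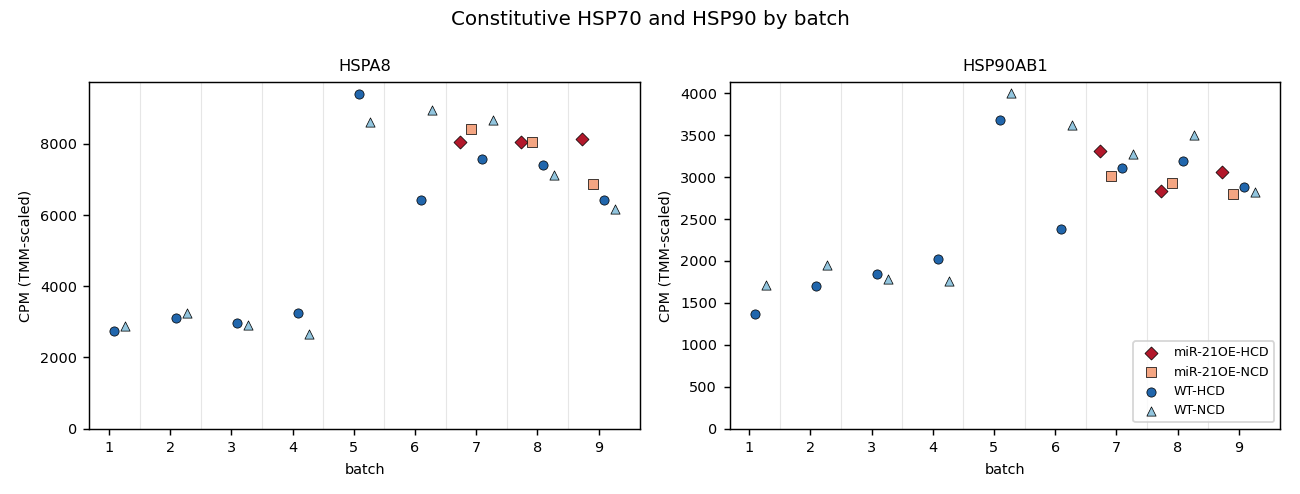
Level in CPM (vertical axes, linear, starting at 0) of HSPA8 and HSP90AB1 by batch (horizontal axes), 1 point per library, with colour and shape giving the group. The libraries of batches 5 to 9 lie above those of batches 1 to 4 for both genes, and the miR-21OE libraries of batches 7 to 9 lie among the WT libraries of batches 5 to 9.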

How the data were processed

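Counts per gene were deposited by the authors as 1 table of raw counts with Ensembl gene IDs for 24 liver libraries, with no normalization. The submitters' processing notes name STAR 2.7.9a, cutadapt 1.16, featureCounts 1.6.3 and the build GRCz11. The libraries were directional and depleted of ribosomal RNA, but the strand setting of the counting is not given in the sources used here, so overlapping genes, antisense partners and near-identical copies are uncertain. Symbols came from a gene table that matched 29201 of the 32520 IDs, often with human symbols. No coordinates were used, since only a table of another assembly, GRCz12tu, was at hand, and it served for gene neighbours.

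Groups and batches came from the labels. Genes with fewer than 10 counts over the fitted libraries were left out, counts were scaled by TMM, and differences were tested two-sided in R 4.3.3 by edgeR 4.0.16 (quasi-likelihood) with batch as a block. Calls used Benjamini-Hochberg adjusted p under 0.05. The SE was not an output of the fit: it is the absolute log2 fold change divided by the square root of the F statistic. One fit held the 12 libraries of batches 7 to 9 (21660 genes) and another the 18 WT libraries (23934 genes). Same-batch libraries deviated together (mean correlation 0.460 over 18 pairs, lowest 0.185, in the first fit, and 0.604 over 9 pairs, lowest 0.375, in the second). Of the 75 members, 70 and 71 passed the filter. p-values measure only the spread between these pools of livers. No 2 libraries of a group were identical.

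Genes named were drawn from members that were called, members of a list of canonical heat shock proteins, and for each comparison the 3 highest and 3 lowest log2 fold changes among members with a mean of at least 50 counts. Not all members under these rules are described, and DNAJC2, dnajb6a and dnaja1 are among those left out. HSPA2, DNAJA3 and DNAJC10 were named after their values were seen. The members and lists were chosen with earlier results of these data known. Alternatives were fits without the batch block, DESeq2 1.42.0, other scalings and filters, subsets of batches and leaving out each library. Total counts set the precision of each library, and no sequences are printed.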

Additional observations from a re-analysis of the deposited data

Results flagged for a closer look

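In 84 groups of libraries tested for a single library far from the others, 4 members stood out, and chance gives about 1 in 20 such groups. dnajb6b (ENSDARG00000020953) had 2.09 CPM in WT-NCD 1, DNAJB4 (ENSDARG00000038978) had 0.411 CPM and HSPA4L (ENSDARG00000053544) had 1.05 CPM in the same library, and the second ID with the symbol HSPA8 (ENSDARG00000037403) had 4.24 CPM in WT-HCD 2, the library with the highest intestinal marker sum (1420 CPM). In each case the value was the highest of the 9 libraries of its group. All 4 members had low counts. The 84 groups did not cover every member. In WT-NCD 1, DNAJC6 had 4.89 CPM, against 0.104 to 0.874 CPM in the other WT-NCD libraries. DNAJC5 (ENSDARG00000042948) had 2.43 CPM in WT-NCD 1, against at most 0.307 CPM in the others.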

How the results depend on the processing

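Batch was a block in the main fits, and fits without it served as alternatives. With no replicate block edgeR called 0 members in the averaged genotype comparison, where the pairing by batch gave 2, and all-gene calls went to 84, against 469 with the block, and in the 9-batch diet comparison to 276, against 1791. Members called in the averaged comparison were 5 with DESeq2 and the block, 1 with library totals and 0 to 3 without 1 library. All-gene calls in these settings were 1176, 485 and 217 to 495. On NCD alone DESeq2 called 2 with and 2 without the block, beside 415 and 106 of the 21660 genes tested. In the 9-batch diet comparison the 0 of edgeR became 7 with DESeq2 and the block, 1 with DESeq2 size factors, 11 with library totals, 1 without a filter, 4 with a mean of at least 50 counts, 1 in batches 1 to 6 alone and 0 to 3 without 1 library. All-gene calls in the same order were 3168, 1912 and 3820 of 23934 genes, 1816 of 27946, 1995 of 11869 and 793 of 23420. Without 1 library they were 1045 to 2148. The only value that changed sign with a call was that of HSPA8 with library totals, 0.33. With DESeq2 and the block, all-gene calls were 415 on NCD, 340 on HCD, 1176 averaged, 184 for the WT diet of batches 7 to 9, 52 for the diet in miR-21OE, 8 for the interaction and 3168 for the 9-batch diet, against 58, 53, 469, 18, 2, 0 and 1791 with edgeR. Library totals moved the median of all genes to 0.39 in the 9-batch diet comparison and to 0.11 in the averaged one. The 3 miR-21OE libraries per diet limit the genotype comparisons, and low members such as hsp70.1 rest on few counts.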

Other observations

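The diet difference of HSPA8 per WT batch (log2 of WT-HCD over WT-NCD) was set against that of 14 other cytosolic members over the 9 batches, and 0 of the 14 relations passed after Benjamini-Hochberg adjustment, with TMM scaling or with library totals. With TMM scaling the highest Pearson r was that of HSP90AB1, 0.851 (permutation p = 0.00666, adjusted 0.0932), with a Spearman rho of 0.617 (permutation p = 0.0878, adjusted 0.410). Without batches 4 and 6, the 2 farthest from the median of HSPA8, its r was 0.273, so the relation rested on those batches. With library totals the highest r was that of HSPA14, 0.833 (permutation p = 0.00417, adjusted 0.0584), with a rho of 0.733 (permutation p = 0.0308, adjusted 0.144) and an r of 0.672 without batches 1 and 4. The scaling turned the sign of r for hsp70.1, hsp70.3, hsp70l, HSP90AA1, dnajb1b and HSPA4 (ENSDARG00000004754), and the other relations were positive with both scalings. For hsp70.1 r was -0.741 with TMM (permutation p = 0.0236) and 0.671 with library totals (permutation p = 0.0485). For HSP90AA1 it was -0.654 with TMM and 0.703 with library totals, and for hsp70.3 it was -0.526 and 0.746.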
